A study of Mus musculus with 59 samples.

Results

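Impa2, Lmnb1 and Acaa2 are 3 protein-coding genes of mouse chromosome 18 whose RNA was lower in embryonic stem cells (ESCs) without Zcchc8 than in control cells. They were taken by symbol from a table of 23974 genes and were chosen by their difference between knockout (KO) and control in an earlier look at the same libraries. Their KO against control values are therefore a description, with no test. Of the 569 chromosome 18 genes in the table, 202 passed the minimum level for testing, as did all 3 genes. Each of the 3 was represented by 1 RefSeq transcript.

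The libraries were total RNA, depleted of ribosomal RNA, from ESCs derived from blastocysts of the BDF1 strain and grown with serum, LIF and the inhibitors CHIR99021 and PD0325901. Control cells were wild type and KO cells lacked Zcchc8, a scaffold protein of the nuclear exosome targeting complex, which delivers nuclear RNA to the exosome for degradation. To block transcription, cells of both genotypes were given 5 µg/ml of Actinomycin D, and RNA was taken at 0, 4 and 8 h with ERCC spike-in RNA added. Each of the 6 groups held 2 replicates, which makes 12 of the 59 samples in the series. The labels do not say how many KO clones there were or whether replicates were separate cultures, and the spread between libraries may therefore be technical.

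Impa2 encodes inositol monophosphatase 2, which frees inositol from inositol monophosphate and so feeds the inositol pool used for signalling lipids. Lmnb1 encodes lamin B1, a filament protein of the nuclear lamina, the meshwork under the inner nuclear membrane. Acaa2 encodes the mitochondrial 3-ketoacyl-CoA thiolase, which releases acetyl-CoA in the last step of a round of fatty acid oxidation. The 3 proteins work in different compartments and are not known as parts of one pathway. When transcription is stopped, the level of an RNA falls with its own decay, whereas a difference in gene copies or in transcription sets the level from which that fall starts.

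Depth was low, with 465324 to 1364523 counted reads per library, and 1 read was worth 0.452 to 3.23 units of the deposited normalised count. Control 0 h replicate 2, the shallowest library, had 3.23 units per read against 1.32 in control 0 h replicate 1. Its deposited values summed to 1503070 units, near the 1486310 and 1434710 of the KO 0 h libraries. Those of control 0 h replicate 1 summed to 822410, so the control replicates at 0 h differ in deposited level. As deposited, the median gene was higher in KO by 0.44, 0.29 and 0.63 (log2) at 0, 4 and 8 h. Values are therefore also given after TMM scaling, which sets libraries to a common level for the bulk of the 6952 tested genes and brought that median to 0.01, −0.00 and −0.00. Zcchc8 itself had 45 and 24 reads in control and 15 and 3 in KO at 0 h. At 4 h it had 45 and 32 reads in control and 38 and 14 in KO, and at 8 h 14 and 25 against 15 and 3.

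Of the ESC markers listed, 15 of 20 were measured above the minimum, Pou5f1 and Sox2 among them. Nanog, Tbx3, Dppa4 and Prdm14 were detected but lay below it. Esrrb, one of the genes with several transcripts in this table, was at 0 throughout. Of the fibroblast markers, 13 of 19 were above the minimum, including Col1a1 and Vim. Pdgfra, Lum and Dcn were detected below it, and Pdgfrb, Postn and Sparc were at 0 in all libraries. Widely expressed genes such as Etfb, Sun1 and Icmt are also listed at 0, so a 0 is no measure of RNA here. The summed fibroblast markers (TMM-scaled) were 5855 to 6221 in control and 8398 to 10654 in KO at 0 h. They were 10555 to 11554 against 16518 to 17722 at 4 h, and 17697 to 17698 against 13698 to 18727 at 8 h. The summed ESC markers were 3090 to 3302 in control and 2456 to 2589 in KO at 0 h, 2116 to 2227 against 1800 to 1906 at 4 h, and 2013 to 2111 against 1499 to 1944 at 8 h. Both sums thus moved with genotype at 0 and 4 h, and their part in the values below was not tested. In bulk RNA, fewer cells of a type and less RNA per cell cannot be told apart.

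Impa2 was well below its control level in KO cells at every time. After TMM scaling the control libraries held 220 and 190 units at 0 h, 235 and 274 at 4 h, and 287 and 246 at 8 h. The KO libraries held 99.9 and 106 units at 0 h, 103 and 113 at 4 h, and 137 and 128 at 8 h. The highest KO library thus lay below the lowest control library, and KO means were 50.2%, 42.4% and 49.7% of control at 0, 4 and 8 h. The log2 difference was −0.98, −1.23 and −1.0, each with a standard error (SE) of 0.224, and its mean over the 3 times was −1.07 (SE 0.130). Behind these values stood 106 to 366 reads per control library and 85 to 190 per KO library.

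The deposited values of Impa2 went down over time in both genotypes. Control libraries read 221 and 342 units at 0 h, 186 and 283 at 4 h, and 129 and 140 at 8 h. KO libraries read 185 and 189 at 0 h, 107 and 135 at 4 h, and 106 and 107 at 8 h. KO lay below control without overlap at each time on this scale also, but by different amounts, at 66.3%, 51.5% and 79.1% of the control mean. Without control 0 h replicate 2 the deposited difference at 0 h was −0.24 in place of −0.56, while after TMM scaling it was −1.10 in place of −0.98. Leaving out each library in turn gave −0.87 to −0.24 as deposited and −1.10 to −0.88 after TMM scaling.

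Lmnb1, the most abundant of the 3 in reads, behaved in the same way after TMM scaling, with KO well below control at each time. Its TMM-scaled control values were 539 and 507 units at 0 h, 856 and 796 at 4 h, and 783 and 801 at 8 h. Its KO values were 271 and 304 at 0 h, 418 and 368 at 4 h, and 537 and 336 at 8 h. Groups did not overlap at any time, and KO means were 55.0%, 47.6% and 55.1% of control, with both KO replicates at 8 h further apart than those of any other group. The log2 differences were −0.86, −1.07 and −0.90 (SE 0.214 each), with a mean of −0.94 (SE 0.123). Without KO 8 h replicate 2, the library with 336 units and 224 reads, the difference at 8 h was −0.56.

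The deposited values of Lmnb1 were 543 and 911 units in control and 502 and 541 in KO at 0 h, so the lower control library lay only just above the higher KO library. At 4 h they were 677 and 822 in control against 433 and 440 in KO. At 8 h they were 353 and 456 in control and 414 and 282 in KO, and the groups overlapped. Without KO 8 h replicate 2 the deposited difference at 8 h was 0.04 in place of −0.23, and without control 0 h replicate 2 the difference at 0 h was −0.06 in place of −0.43. Leaving out each library in turn gave −0.80 to −0.06 at 0 h and −0.51 to 0.04 at 8 h.

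Acaa2 was the lowest of the 3 in reads and the one whose difference varied most over time. TMM-scaled control libraries held 45.8 and 79.0 units at 0 h, 55.2 and 50.9 at 4 h, and 50.4 and 44.5 at 8 h. KO libraries held 12.7 and 11.9 units at 0 h, 31.4 and 16.2 at 4 h, and 33.9 and 18.0 at 8 h. No KO library reached the lowest control library of its time, and KO means were 19.7%, 44.9% and 54.8% of control. The log2 differences were −2.20, −1.19 and −0.91 (SE 0.448 each), with a mean of −1.43 (SE 0.259). The 0 h value rests on 14 and 12 reads in KO against 35 and 44 in control, and it was −1.82 without control 0 h replicate 2. Leaving out each library in turn gave −2.59 to −1.82 at 0 h.

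As deposited, Acaa2 stood at 46.1 and 142 units in control and 23.6 and 21.2 in KO at 0 h. At 4 h it stood at 43.7 and 52.5 in control and 32.5 and 19.4 in KO, and at 8 h at 22.7 and 25.3 in control and 26.1 and 15.1 in KO. The control replicates at 0 h differed more from each other than the lower of them differed from KO, and at 8 h the groups overlapped. The deposited difference went from −1.81 at 0 h to −0.90 at 4 h and −0.26 at 8 h. It was −1.01 at 0 h without control 0 h replicate 2, and 0.12 at 8 h without KO 8 h replicate 2. After TMM scaling the 8 h difference without KO 8 h replicate 2 was −0.47. Leaving out each library in turn gave deposited differences of −2.62 to −1.01 at 0 h and −0.63 to 0.12 at 8 h.

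**Figure D1:**
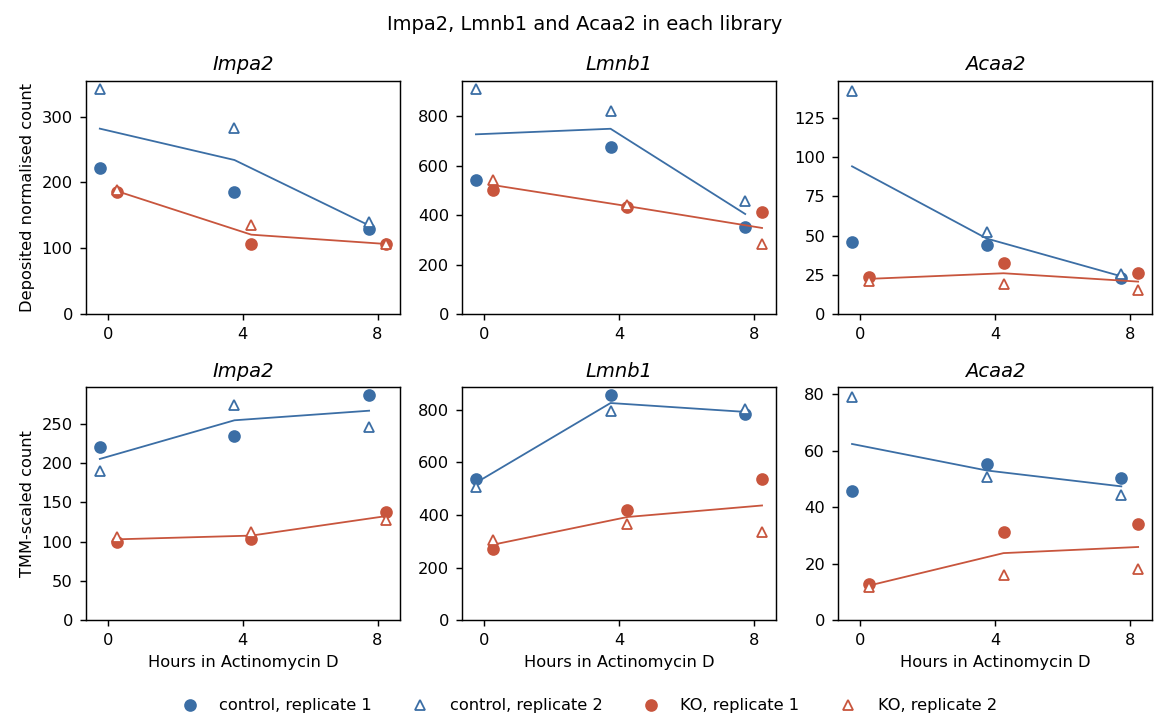
Normalised counts of Impa2, Lmnb1 and Acaa2 (linear axes from 0) in each of the 12 libraries against hours in Actinomycin D, as deposited (top) and after TMM scaling (bottom); circles are replicate 1, triangles replicate 2, and lines join group means. After TMM scaling every KO library lies below every control library of the same time for all 3 genes, whereas on the deposited scale Lmnb1 and Acaa2 overlap at 8 h.

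To place these values, the share of all tested genes with KO below control and no overlap of replicates after TMM scaling was 21.8% at 0 h, 24.7% at 4 h and 19.8% at 8 h. The share with no overlap at all 3 times was 3.96% (275 genes), and Impa2, Lmnb1 and Acaa2 were all among them. With the deposited values these shares were 3.27%, 8.7% and 2.86%, and 0.129% (9 genes) at all 3 times, of which Impa2 was one. By the limma test with Benjamini-Hochberg adjustment, 27 genes (0.388%) were called lower in KO at 0 h after TMM scaling, 17 (0.245%) at 4 h and 19 (0.273%) at 8 h. Impa2 and Lmnb1 were in all 3 sets and Acaa2 in the set at 0 h, which are the values that chose them. Those calls were not steady: with 1 library left out, Impa2 was called in 2, 8 and 9 of 12 fits at 0, 4 and 8 h, Lmnb1 in 2, 6 and 3, and Acaa2 at 0 h in 9. With the deposited values 5 genes (0.0719%) were called lower at 0 h, with Acaa2 as the only one of the 3, and 1 gene (0.0144%) at 8 h. At 4 h limma called 0 genes on that scale, with 58 (0.834%) lower at an unadjusted p below 0.05, against 1 called by edgeR with the deposited factors and 49 (0.874%) by DESeq2 with its own size factors.

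The change over time within a genotype is not the comparison that chose the genes, and it was tested as a straight line on the log2 scale. It uses the same library values, however. A choice of genes low in KO at 0 h can make control slopes steeper and KO slopes flatter. The slope tests of the 3 genes are therefore not independent of the choice. On the deposited scale Impa2 fell by 0.128 per hour in control (limma, adjusted p = 0.0229) and Acaa2 fell by 0.215 per hour (adjusted p = 0.00907), whereas the slope of Lmnb1 was −0.101 (adjusted p = 0.0654). Falling slopes were called for 52.1% of the tested genes in control, and the median slope was −0.17, so that 2 of 3 called is near the background. In KO the slopes were −0.101 for Impa2 (adjusted p = 0.0823), −0.0760 for Lmnb1 (adjusted p = 0.178) and −0.0198 for Acaa2 (adjusted p = 0.809), and none was called, against 37.3% of the tested genes and a median slope of −0.14. Without control 0 h replicate 2 the control slopes of Impa2 and Acaa2 were −0.104 (limma, adjusted p = 0.144) and −0.133 (adjusted p = 0.180). The call of Impa2 was also lost without control 8 h replicate 1 or 2 (adjusted p = 0.124 and 0.0864) and that of Acaa2 without control 8 h replicate 1 (adjusted p = 0.0615).

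After TMM scaling a slope is relative to the bulk of the transcripts, with a median gene at 0.00 per hour in control and −0.00 in KO. On that scale Impa2 had slopes of 0.0469 in control and 0.0450 in KO, and Lmnb1 of 0.0749 and 0.0706. Acaa2 had slopes of −0.0426 in control and 0.119 in KO. None of these 6 slopes was called by limma, which called falling slopes for 8.86% of the tested genes in control and 3.77% in KO, and rising slopes for 8.24% and 2.78%.

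Constancy of the difference over time was tested as the difference between the KO slope and the control slope. This is built from the KO against control values that chose the genes, so its p-values are not independent of the choice. For Impa2 and Lmnb1 it is read with that limit. For Impa2 the slope difference was −0.00191 per hour after TMM scaling, with a 95% confidence interval of −0.0918 to 0.0880 (limma, adjusted p = 0.993). Over 8 h this interval spans a change in the log2 difference of −0.73 to 0.70. For Lmnb1 it was −0.00432 per hour (−0.0981 to 0.0895, adjusted p = 0.988), or −0.78 to 0.72 over 8 h. The intervals are wide beside the differences themselves, so a drift of that size was not detectable with these 12 libraries.

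For Acaa2 the slope difference was 0.162 per hour after TMM scaling (−0.00411 to 0.328, unadjusted p = 0.0555, adjusted p = 0.712 by limma) and 0.195 on the deposited scale (0.00261 to 0.387, unadjusted p = 0.0471, adjusted p = 0.951). This was the gap narrowing from 0 to 8 h, and it did not pass the adjustment on either scale. Acaa2 was chosen with its 0 h values known, where its difference was largest, so these p-values are no separate test of a narrowing gap. On the deposited scale the slope differences of Impa2 and Lmnb1 were 0.0276 (−0.107 to 0.162) and 0.0250 (−0.108 to 0.159). Across all tested genes limma called 0 slope differences on either scale, with 350 genes (5.03%) on the deposited scale and 488 (7.02%) on the TMM scale at an unadjusted p below 0.05. With edgeR 0 genes were called, and with DESeq2 4 (0.0575%).

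**Figure D2:**
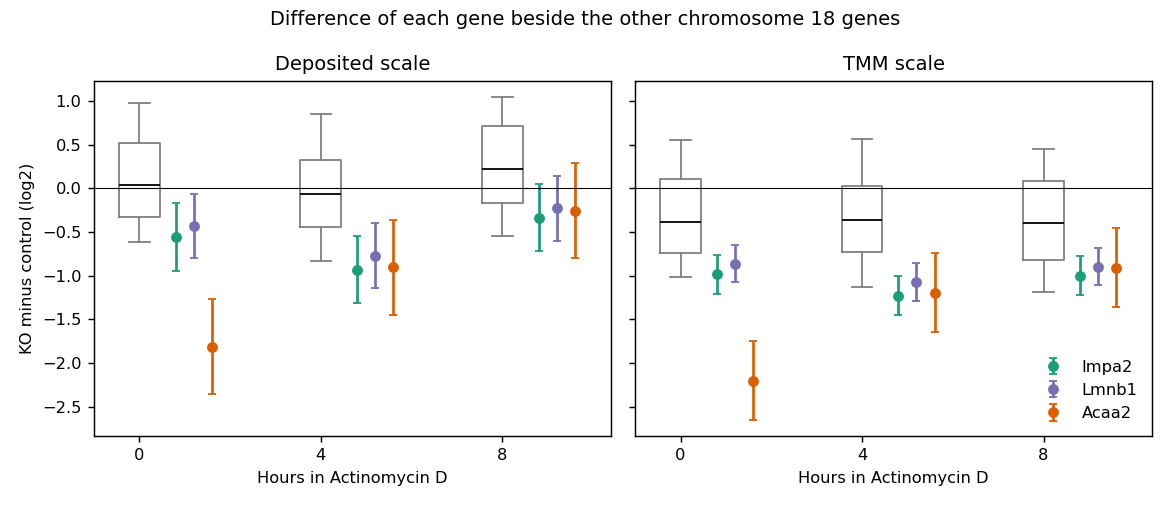
KO minus control difference (log2) of Impa2, Lmnb1 and Acaa2 with its standard error at 0, 4 and 8 h, on the deposited scale (left) and after TMM scaling (right), with grey boxes for the other 199 tested genes of chromosome 18 (median and quartiles, whiskers at the 10th and 90th percentiles). Impa2 and Lmnb1 stay between −0.86 and −1.23 on the TMM scale, below the box at every time, and Acaa2 moves from −2.20 to −0.91.

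Other genes of chromosome 18 were lower in KO as well. After TMM scaling the mean difference over the 3 times had a median of −0.40 and quartiles of −0.67 and −0.04 over the 202 tested genes, against a median of 0.02 for genes elsewhere. A value below 0 was found for 155 of the 202 (76.7%) against 48.3% of the genes elsewhere, and a value below 0 at all 3 times for 99 (49.0%) against 19.5%. KO lay below control with no overlap at all 3 times for 38 chromosome 18 genes (18.8%), against 237 of 6750 others (3.51%). On the deposited scale, where the median gene was higher in KO, the chromosome 18 median was 0.03, −0.08 and 0.21 at 0, 4 and 8 h, so its direction after TMM scaling is relative to the bulk of the genes.

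Among the 202 genes, Acaa2 ranked 4th from the lowest in the mean difference, Impa2 14th and Lmnb1 20th. They lay 1.04, 0.67 and 0.55 below the median of the other chromosome 18 genes. At single times Impa2 ranked 26th, 14th and 36th at 0, 4 and 8 h, Lmnb1 38th, 24th and 46th, and Acaa2 2nd, 17th and 43rd. All 3 thus lay below the lower quartile of their chromosome at each time, with other genes lower still. For scale, the log2 of a ratio of 2 gene copies to 3 is −0.58 and of 1 copy to 2 is −1. The estimates of Impa2 and Lmnb1, with standard errors of 0.214 to 0.224, lay nearer the second of these at each time. An exception was Lmnb1 at 8 h, at −0.56 without KO 8 h replicate 2. The 95% intervals at 0 h, −1.455 to −0.51 for Impa2 and −1.31 to −0.41 for Lmnb1, held both ratios. So did those at 8 h, −1.47 to −0.53 and −1.35 to −0.45. At 4 h they were −1.70 to −0.76 and −1.52 to −0.62 and held only the second. As the genes were chosen for low values, their estimates cannot rank these ratios. The estimates of Acaa2, −2.20, −1.19 and −0.91, were below both ratios at 0 and 4 h. Its 95% intervals were −3.14 to −1.26, −2.13 to −0.25 and −1.85 to 0.03 at 0, 4 and 8 h. Those at 4 and 8 h held both ratios. The chromosome median after TMM scaling, −0.40 over all 202 genes, was closer to 0 than either ratio. For the 79 chromosome 18 genes with a mean of at least 50 it was −0.56, −0.44 and −0.45 at 0, 4 and 8 h and −0.53 in the mean, where other genes had −0.06. Gene copies were not measured in these libraries, and the part of a copy number change in the drop was not tested.

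**Figure D3:**
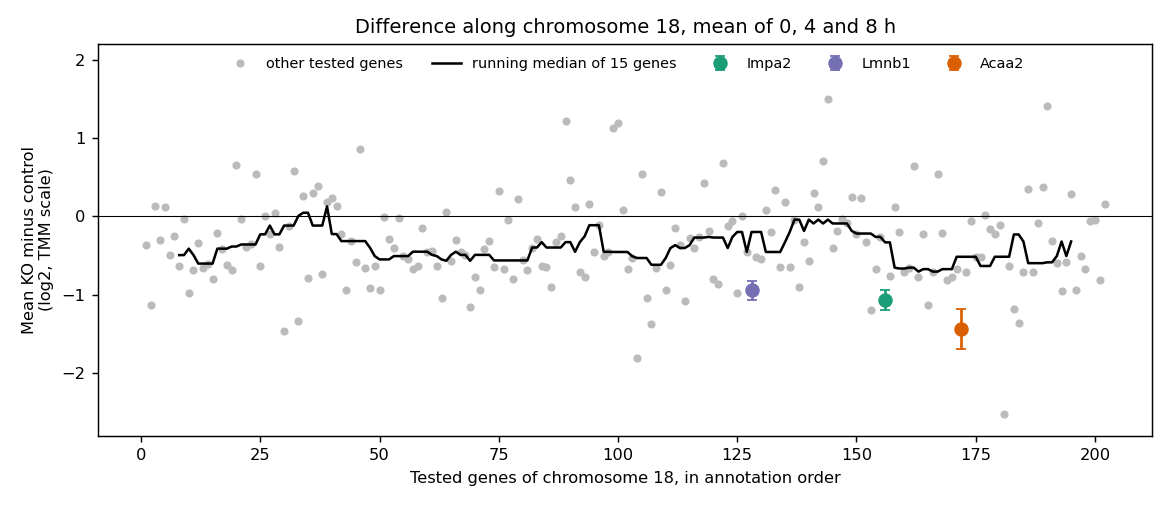
Mean KO minus control difference over 0, 4 and 8 h (log2, TMM scale) of the 202 tested genes of chromosome 18 in annotation order; grey points are single genes, the line is a running median of 15 genes, and Impa2, Lmnb1 and Acaa2 carry their standard errors. The running median is below 0 in 184 of 188 windows, and the 3 genes lie below it.

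The share of counted reads that fell on chromosome 18 genes was also lower in KO, and it needs no model. It includes Impa2, Lmnb1 and Acaa2, which were chosen for being lower. Leaving out Rn45s, the ribosomal precursor, it was 2.72% and 2.82% in control and 1.97% and 2.04% in KO at 0 h. At 4 h it was 2.58% and 2.59% in control and 1.88% and 1.85% in KO, and at 8 h 2.39% and 2.33% in control and 1.72% and 1.67% in KO. Every KO library was below every control library. The Wilson 95% interval of the shallowest library, control 0 h replicate 2, was 2.77% to 2.87%, which covers counting error only. KO shares were 0.725, 0.720 and 0.718 of control at 0, 4 and 8 h, while the other 19 chromosomes ranged from 0.898 to 1.20, from 0.908 to 1.20 and from 0.817 to 1.25. Without the 3 genes the share was 2.61% and 2.71% in control and 1.92% and 1.98% in KO at 0 h. At 4 h it was 2.44% and 2.45% against 1.81% and 1.78%, and at 8 h 2.25% and 2.19% against 1.63% and 1.61%.

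**Figure D4:**
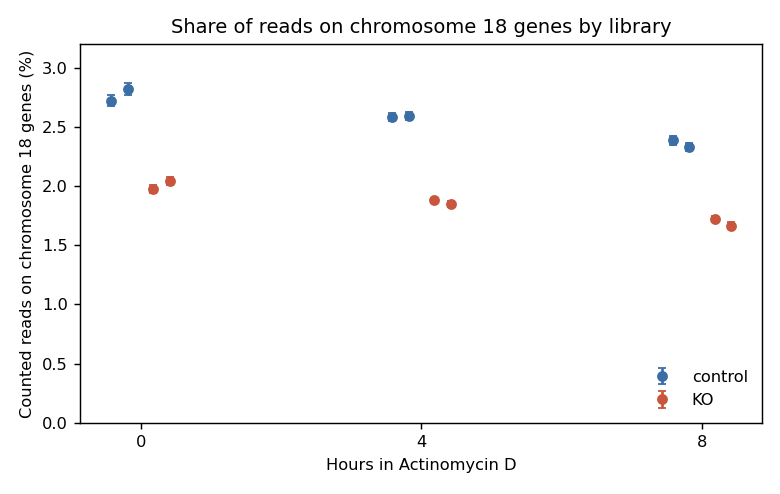
Counted reads on chromosome 18 genes (%, Rn45s left out) in each library against hours in Actinomycin D, with Wilson 95% intervals for counting error. Impa2, Lmnb1 and Acaa2 are included. KO libraries run from 1.67% to 2.04% and control libraries from 2.33% to 2.82%, and the ratio of KO to control is 0.718 to 0.725 at each time.

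No other chromosome was as far below 0. After TMM scaling the chromosome 18 median was −0.39, −0.37 and −0.41 at 0, 4 and 8 h. The lowest of the other 19 chromosomes at those times were −0.09 (chromosome 13), −0.14 (chromosome 3) and −0.08 (chromosome 9). Chromosome 6 lay above 0 at each time, at 0.31, 0.25 and 0.24, and chromosome 8 at 0.19, 0.18 and 0.20. Leaving out each library in turn kept the chromosome 18 median of the mean difference between −0.46 and −0.36.

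**Figure D5:**
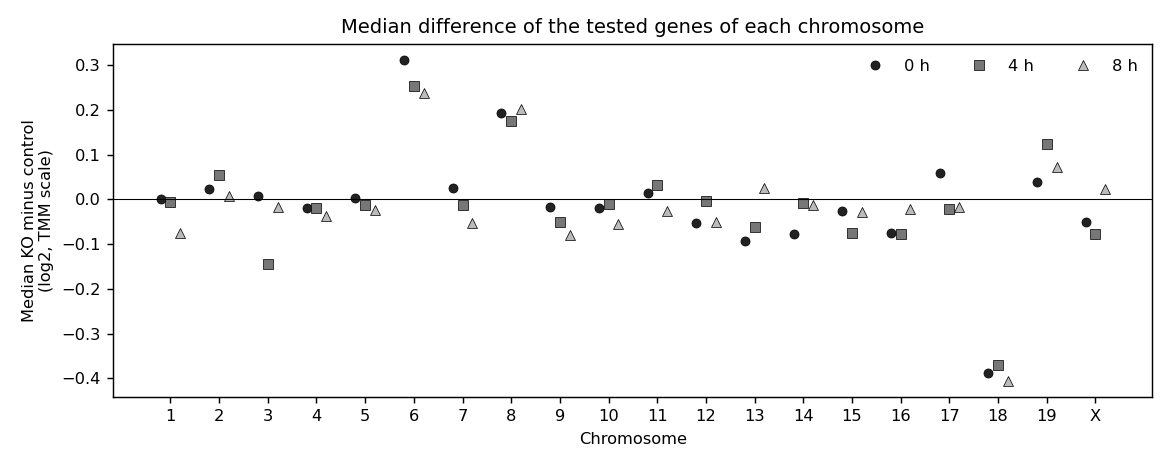
Median KO minus control difference (log2, TMM scale) of the tested genes of each chromosome at 0, 4 and 8 h. Chromosome 18 lies at −0.37 to −0.41, the lowest of the 20 chromosomes at each time, and chromosomes 6 and 8 lie highest at each time.

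After TMM scaling, in 4 blocks of 50 or 51 tested genes along chromosome 18, the median mean difference was −0.36, −0.45, −0.27 and −0.59. Blocks followed annotation order. Lmnb1 lies in the third block, and Impa2 and Acaa2 in the fourth. The running median of 15 genes went from −0.71 to 0.13.

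The nearest tested genes on both sides of each of the 3 are given beside the whole of chromosome 18, all after TMM scaling. Its median mean difference was −0.40, and 21.8% of its genes were called lower. As deposited the median was 0.04 and 2.48% were called lower. Acaa2 had all 6 neighbours below 0, with a median of −0.69, and 4 were called lower in the mean difference by limma. Rpl17, a protein of the large ribosomal subunit, was the best measured of them, with 1283 and 1091 units in control and 737 and 629 in KO at 0 h. Its mean difference was −0.71 (SE 0.0975, adjusted p = 0.000124), and its groups did not overlap at any time. Smad4, the shared signal transducer of the TGF-beta and BMP pathways, was at −0.82 (adjusted p = 0.0423), the malic enzyme gene Me2 at −0.78 (adjusted p = 0.0438) and Cxxc1, a CpG-binding subunit of a histone methyltransferase complex, at −0.67 (adjusted p = 0.0275). Dym was at −0.51 and BC031181 at −0.06, and neither was called.

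Around Impa2 the 6 neighbours had a median of −0.46 after TMM scaling, with 5 below 0. Pmaip1, which encodes the apoptosis promoter Noxa, was called lower at −1.19 (limma, adjusted p = 0.0261), but not as deposited (adjusted p = 0.116). Chmp1b was at −0.67, Mppe1 at −0.26, Afg3l2 at −0.20 and the tubulin gene Tubb6 at 0.12, with no call. B430212C06Rik, a noncoding gene whose exons overlap those of Impa2 on the opposite strand, was at −0.76 (adjusted p = 0.0594) with 13 to 59 reads per library. Whether counting used strand is not stated in the sources, so reads of this gene and of Impa2 may not be separable where they overlap. Around Lmnb1 the median after TMM scaling was −0.49, with 4 of 6 below 0. The centrosome gene Cep120 was called lower at −0.98 (limma, adjusted p = 0.0240), but not as deposited (adjusted p = 0.197). Prrc1, Slc12a2 and Phax were at −0.52, −0.54 and −0.45 and were not called, and Csnk1g3 and Fbn2 were at 0.00 and 0.08.

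Over the whole chromosome, limma called 44 of the 202 genes (21.8%) lower in the mean difference after TMM scaling, against 2.64% of the other genes and 3.19% of all. The 3 genes were among the 44, which also held Rps14 of the small ribosomal subunit, Atp5a1 of the mitochondrial ATP synthase, the homeobox gene Cdx1 and the RNA export gene Thoc1. At single times the chromosome gave 7 of the 27 lower calls at 0 h, 5 of 17 at 4 h and 6 of 19 at 8 h. These were 3.47%, 2.48% and 2.97% of its tested genes, against 0.296%, 0.178% and 0.193% of the others. The counts include the genes that were chosen for being lower. At 0 h the genes called were Acaa2, Impa2, Lmnb1, Rock1, Rpl17, Rprd1a and Thoc1. At 4 h they were A930012L18Rik, Cdx1, Impa2, Lmnb1 and Rpl17, and at 8 h Atp5a1, Cdx1, Cep192, Impa2, Lmnb1 and Sap130. Without TMM scaling 5 chromosome 18 genes were among the 18 (0.259%) called lower in the mean difference, namely A930012L18Rik, Acaa2, Haus1, Impa2 and Rnf165. On that scale 13 genes of the chromosome were called higher, more than were called lower. They are 13 of 202, a smaller share than the 1321 of all 6952 tested genes (19%) called higher.

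Chromosome 18 was not uniformly lower. After TMM scaling 4 of its 202 genes, against 377 of all tested genes (5.42%), were called higher in the mean difference by limma, namely Rbfa (1.41, adjusted p = 7.78e-05), Sh3tc2 (1.5, adjusted p = 0.0128), Pcdhgb8 (1.22, adjusted p = 0.0379) and Lox (0.68, adjusted p = 0.0316). Rbfa, whose product takes part in mitochondrial ribosome assembly, held 158 and 167 units in control and 435 and 640 in KO at 0 h.

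The genes whose levels followed each of the 3 most closely were found by Pearson correlation of TMM-scaled log2 values over the 12 libraries, which share their genotype and time groups. For Impa2 the 5 highest were Myo10 (0.929), Pdk1 (0.921), Lmnb1 (0.918), Cdx1 (0.918) and Dock5 (0.915), of which Lmnb1 and Cdx1 lie on chromosome 18. For Lmnb1 they were Ube2s (0.964), Rps14 (0.943), Ywhaq (0.942), Scarna13 (0.941) and Atp5a1 (0.939), with Rps14 and Atp5a1 on chromosome 18. For Acaa2 they were Coro7 (0.924), Dnajc18 (0.912), Csrp2 (0.897), Atrx (0.882) and Kdm3b (0.881), with Dnajc18 and Kdm3b on chromosome 18. Acaa2 itself correlated at 0.820 with Impa2 and at 0.844 with Lmnb1. Chromosome 18 supplied 20%, 19% and 14% of the 100 genes most like Impa2, Lmnb1 and Acaa2, and 2.91% of the tested genes. It also held 19.8% of the genes called lower in the mean difference after TMM scaling. The genotype difference that chose the 3 genes is part of these correlations, so the shares restate it and are no separate result.

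Genes that act with the 3 proteins but lie on other chromosomes were compared from lists of the nuclear lamina, of inositol phosphate metabolism and of mitochondrial fatty acid oxidation. Of the lamina and nuclear envelope list, 14 of 23 genes were tested, the median mean difference after TMM scaling was 0.13, and limma called 2 lower and 0 higher, beside 3.19% and 5.42% of all tested genes. The lower ones were Lmnb2, which encodes the other B-type lamin (−0.56, SE 0.164, adjusted p = 0.0387), and Lbr, the lamin B receptor of the inner nuclear membrane (−0.57, SE 0.146, adjusted p = 0.0196). Lmnb2 held 80.8 to 166 units in control, with a median of 129, and 57.5 to 104 in KO, with a median of 86.2. Lbr held 104 to 167 units in control, with a median of 135, and 69.4 to 109 in KO, with a median of 88.9. The difference of Lmnb1 was −0.94, and whether it differs from these was not tested. Without TMM scaling Lmnb2 and Lbr were at −0.10 and −0.11 (adjusted p = 0.777 and 0.756), and neither was called. The list then had 0 lower and 2 higher calls, Nrm (adjusted p = 0.0129) and Fnta (adjusted p = 0.0399). Lmna, which encodes the A-type lamins, was at −0.03, Lemd3 at −0.54, Nrm at 0.70 and Rce1 at 0.55 after TMM scaling, without a call.

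Of the inositol phosphate list, 11 of 25 genes were tested, with a median of −0.16. Limma called 0 lower and 1 higher, a share near that of all tested genes (5.42%). This was the inositol-3-phosphate synthase gene Isyna1 (0.53, SE 0.140, adjusted p = 0.0229), which makes the substrate of inositol monophosphatases. It lies on chromosome 8, whose median was 0.19, and it held 108 to 242 units in control and 162 to 321 in KO. Impa1, the closest paralog of Impa2, was below the minimum for testing, and Impad1 was at 0.07. Ip6k2, Minpp1, Itpkc and Cdipt were at −0.84, −0.62, −0.57 and 0.53 and were not called. As deposited, 2 were called higher and 0 lower, Isyna1 and Cdipt (adjusted p = 0.00114 and 0.0171).

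Of the fatty acid oxidation list, 19 of 31 genes were tested, with a median of −0.03, and 1 was called lower and 0 higher, a share near that of all tested genes (3.19% lower). It was the carnitine-acylcarnitine carrier gene Slc25a20 (−0.91, SE 0.230, limma adjusted p = 0.0187). It held 35.3 and 50.3 units in control and 11.8 and 18.8 in KO at 0 h, but 49.2 and 49.2 against 37.2 and 52.5 at 8 h, where the groups overlapped. Without TMM scaling it was at −0.46 (adjusted p = 0.267) and not called, and the list had 0 lower and 1 higher call, Acadvl (adjusted p = 0.0358). Of the other thiolases, Acaa1a was at −0.32, Acat1 at −0.61 and Acat2 at 0.05, with no call, while Acaa1b was below the minimum. Hadhb is listed at 0 in all libraries, as are widely expressed genes such as Etfb, Sun1 and Icmt, so its 0 is no measure of its RNA. Ech1 was at −0.61 and Acad9 at −0.53, also without a call. No gene of these 3 lists was called lower at a single time after TMM scaling. All 44 tested genes of the lists lie on other chromosomes, and the median of all tested genes was 0.01.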

How the data were processed

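Normalised counts per RefSeq transcript were deposited as a signal that the authors had divided by 1 factor per library. Dividing each library by its smallest step gave whole reads, within 0.001 reads, for 100% of values. The tools named for mm9 data were HTSeq 0.6.0, TopHat2 2.1.1 and DESeq2, per the submitters' processing notes; settings and the origin of the factors are not given there. The table held 0 spike-in rows, so spike-in scaling was not repeated. Of 33896 rows, 978 repeats were dropped and 32918 transcripts were summed by symbol. The annotation matched 98.7% of symbols and served for chromosome, order and overlap only, since its build differs from mm9, and coordinates are left out.

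Genes averaging at least 10 over the 12 libraries entered limma 3.58.1 (R 4.3.3; trend, robust, two-sided) on log2(value + 1), a scale that understates changes of low genes. The fit had 6 group means, or 1 line per genotype, with Benjamini-Hochberg adjustment over all 6952 genes and calls at an adjusted p below 0.05. The same was done after TMM scaling of the recovered reads. Alternatives were edgeR 4.0.16, DESeq2 1.42.0, other filters and pseudocount, left-out libraries and a replicate block. The test was tried on simulated counts with known changes in some genes. These counts held no common or chromosome-wide shift between genotypes, so the trial does not cover such shifts. Genes were named as the 3 genes, their 3 tested neighbours on each side, the 5 most correlated genes, up to 6 per list (paralogs, then the largest differences) and chromosome 18 genes called lower; of the 44 called in the mean difference, some are named, and the genes called higher, with the marker genes, were chosen after their values were seen. The 3 genes, the lists and the look at chromosome 18 were chosen with earlier results of these data known. The other 47 samples were not analysed here.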

Additional observations from a re-analysis of the deposited data

How the results depend on the processing

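Reads per library limit the values of Acaa2 most, and 2 replicates per group limit all. Leaving out each library in turn kept Impa2 between −1.11 and −1.03, Lmnb1 between −1.07 and −0.84 and Acaa2 between −1.59 and −1.28 in the mean difference after TMM scaling (leaving out a library with TMM scaling was chosen after seeing the data). These are ranges of the values that chose the genes and carry no test.

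Genes called lower at 0 h (5) became 27 with TMM scaling, 2 and 20 with edgeR on deposited and TMM factors, 43 with DESeq2, 20 without the filter, 0 with a mean of at least 50, 10 with pseudocount 5 and 1 with the 4 compared libraries alone. At 4 h (0) they became 17, 1, 32, 49, 2 (mean of at least 50) and 16 (4 libraries). At 8 h (1) they became 19, 2, 15 and 24, and 0 without the filter, with a mean of at least 50 or with pseudocount 5. In the mean difference (18) they became 222 with TMM scaling, 250 with edgeR and TMM, 260 with DESeq2 and 6 with a mean of at least 50. Falling slopes in control (3620) became 616, 681, 744 and 1869 in the same order, and in KO (2596) 262, 338, 366 and 1215. Slope differences (0) became 4 with DESeq2. Leaving out libraries gave 1 to 24, 0 to 8, 0 to 33 and 8 to 43 lower calls at 0, 4, 8 h and in the mean, 1822 to 4473 and 954 to 3124 falling slopes, and 0 to 5 slope differences.

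Replicate numbers did not pair the libraries (correlations of −0.064 to 0.12 over 15 group pairs). With the replicate block, lower calls were 12, 6, 2 and 30, and with the block and TMM scaling 33, 22, 23 and 240, with 603 and 250 falling slopes. Under the block the deposited control slope of Lmnb1 passed (adjusted p = 0.0438).

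Deposited control slopes turned positive with TMM scaling (the same with the block), edgeR and TMM, and DESeq2, at 0.0469, 0.0463 and 0.0418 for Impa2 and 0.0749, 0.0743 and 0.0702 for Lmnb1. KO slopes did so at 0.0450, 0.0458 and 0.0427 for Impa2, 0.0706, 0.0760 and 0.0727 for Lmnb1 and 0.119, 0.134 and 0.132 for Acaa2; the scaling itself removes the common fall. Slope differences turned to −0.00191 with TMM scaling and −0.000509 with edgeR for Impa2 and −0.00432 for Lmnb1, and from the TMM value to 0.000889 with DESeq2 for Impa2 and 0.00167 and 0.00253 with edgeR and DESeq2 for Lmnb1. Leaving out libraries gave ranges that crossed 0 for the TMM slope difference of Impa2 (−0.0232 to 0.0132) and Lmnb1 (−0.0345 to 0.0407), the deposited slope difference of Lmnb1 (−0.0122 to 0.0825), the deposited KO slope of Acaa2 (−0.0514 to 0.0291) and the deposited 8 h differences of Lmnb1 (−0.51 to 0.045) and Acaa2 (−0.63 to 0.12).

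The chromosome 18 median became 0.032, −0.081, 0.21 and 0.045 (mean) on the deposited scale, and −0.56, −0.44 and −0.53 at 0 h, 4 h and in the mean with a mean of at least 50. Leaving out libraries gave −0.45 to −0.37 at 0 h, −0.45 to −0.32 at 4 h −0.50 to −0.40 at 8 h and −0.46 to −0.36 in the mean.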
